A study of Mus musculus with 21 samples.

Results

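The difference in the response to poly-GA between hippocampus and cortex was measured over all 21 of the 21 libraries of the series. The libraries were bulk RNA-seq of dissected tissue from 11 mice and fell into 4 groups, with 5 cortex and 4 hippocampus libraries of control mice (labelled ctrl) and 6 cortex and 6 hippocampus libraries of GACamk mice. GACamk mice (GA-Camk2a in the study's text) carry a floxed transgene for GFP-tagged poly-GA, a dipeptide repeat protein made from the expanded C9orf72 repeat, which Camk2a-Cre switches on in excitatory neurons. The mice were kept on a C57BL/6J background and were killed at 30 to 40 weeks, the humane endpoint of the transgenic animals. No agent was named for any group in the labels. The labels call the controls ctrl only and do not say whether they carried Cre or the unrecombined transgene, and the study's methods derive the GACamk mice from 2 litters. Each tissue of a mouse was a separate library, 10 mice gave both tissues, and control mouse 38 gave cortex only. The study's text gives the numbers of control hippocampi and cortices the other way round, and the labels were used here.

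Hippocampus and cortex are both built around glutamatergic pyramidal cells that express Camk2a, with granule cells in the dentate gyrus and layered projection neurons in the neocortex. Their excitatory neurons differ in the auxiliary subunits that tune AMPA receptors, in peptide and amine receptors and in the transcription factors that keep their identity. The striatum lies directly below the neocortex and consists mostly of inhibitory projection neurons with a cyclic AMP and dopamine signalling apparatus, part of which is also used by cortical neurons.

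The libraries held 1048201 to 5888102 counts, and 14751 genes passed the filter on low counts. Libraries came from 2 batches, which were present in every group. For 5 of the 10 mice with both tissues, the 2 libraries were in different batches. Markers of sex in the RNA matched between the 2 libraries of each of the 10 mice and put 3 mice (1 ctrl, 2 GACamk) as female. The Y-linked genes summed to 9.21 to 19.3 CPM (counts scaled to a common library total) in female libraries against 62.4 to 124.5 in male ones and were thus above 0 in each female library. The GFP row held 13 counts over the 12 GACamk libraries and 4 over the 9 control libraries, too few to check the genotype labels. Markers of hippocampus separated the labelled tissues in both genotypes, and those of cortex in the controls. The 7 hippocampal markers averaged a log2 CPM of 5.61 to 5.96 in control hippocampus against 3.60 to 3.92 in control cortex, and 8 cortical markers 5.55 to 6.04 in control cortex against 4.79 to 5.31 in control hippocampus. In GACamk mice, the hippocampal markers were at 4.89 to 5.15 in hippocampus against 3.65 to 4.03 in cortex, while the cortical markers, at 5.15 to 5.52 in cortex and 4.63 to 5.40 in hippocampus, overlapped. The hippocampal markers include Spink8, Wfs1 and Lct, whose own fall in hippocampus is described below. Ttr, the transthyretin gene of the choroid plexus, ranged from 1708 to 55034 CPM among hippocampal libraries of both genotypes.

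The response differed between the tissues for 93 of the 14751 genes (0.63%), tested as the interaction, the log2 fold change of GACamk over ctrl in hippocampus minus that in cortex (edgeR quasi-likelihood test with batch as covariate, Benjamini-Hochberg adjusted p under 0.05). For 44 genes (0.298%) the hippocampal fold change was the higher one and for 49 (0.332%) the lower one. Most of these genes were lower in GACamk mice in 1 tissue and not called in the other. Of the 44, 31 fell in cortex and were not called in hippocampus, 12 rose in hippocampus and were not called in cortex, and 1 moved in opposite directions. Of the 49, 35 fell in hippocampus and were not called in cortex, 7 fell in both, 5 rose in cortex and were not called in hippocampus, and 2 moved in opposite directions. In each tissue alone, 870 genes were higher (5.9%) and 895 lower (6.07%) in GACamk cortex, and 817 were higher (5.54%) and 1017 lower (6.89%) in GACamk hippocampus. Of 947 genes called in cortex alone, the interaction was called for 36, and of 1016 called in hippocampus alone, for 47. Most genes called in 1 tissue alone thus had no called difference between tissues. The median half-width of the 95% interval of the interaction was 0.50 on the log2 scale, so smaller differences were not detectable for many genes. The count was 44 to 87 when 1 library was left out, lowest without control hippocampus 37. It was 0 over the 8 male mice alone (edgeR), where 939 genes, 91 of the 93 among them, had an unadjusted p under 0.05.

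**Figure D1:**
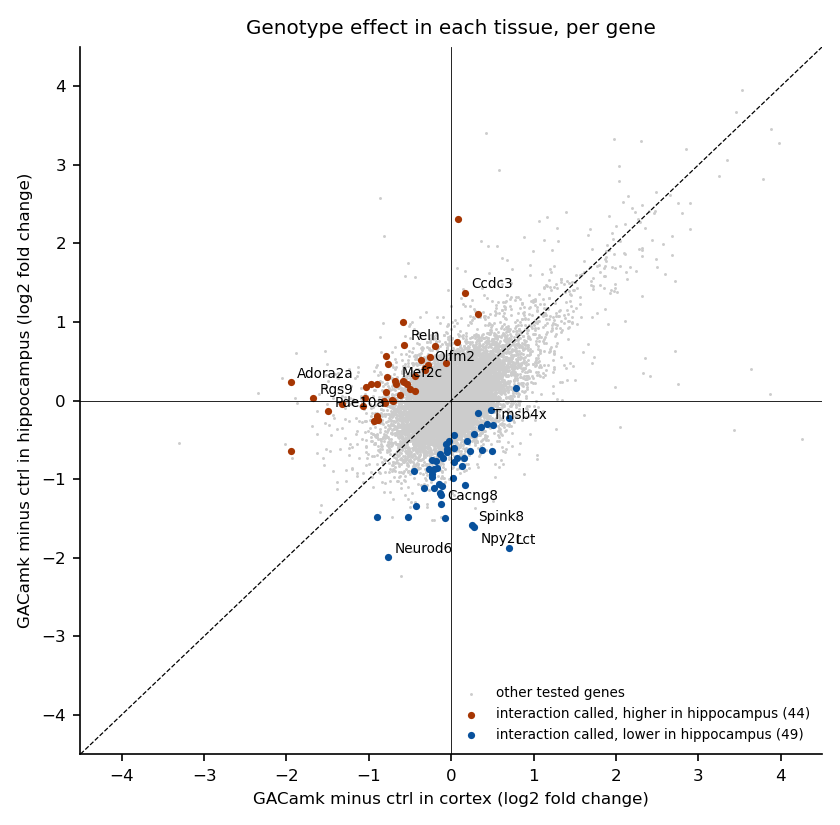
Each point is a gene, placed by its log2 fold change of GACamk over ctrl in cortex (x axis) and hippocampus (y axis); the 44 genes with a higher and the 49 with a lower hippocampal response are coloured, and 8 of 14751 genes lie beyond the axes. Called genes sit off the dashed line of equal response, most of them near 0 in 1 tissue and below 0 in the other.

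Spink8, Npy2r and Wfs1 fell in hippocampus and were not called in cortex. Spink8, a serine protease inhibitor gene that marks CA1 pyramidal cells, was at 82.6, 84.5, 106 and 67.7 CPM in the 4 control hippocampi and at 22.0 to 33.0 CPM (median 27.4) in the 6 GACamk hippocampi. In cortex Spink8 was at 10.4, 8.91, 7.09, 10.8 and 8.88 CPM in controls and 6.07 to 14.1 CPM (median 10.1) in GACamk mice. The hippocampal groups did not overlap, and the cortical ones did. The fold change was -1.58 (log2) in hippocampus and 0.25 in cortex, an interaction of -1.83 ± 0.25 (SE, adjusted p = 9.37e-05). Npy2r, a receptor for neuropeptide Y, was at 35.7, 28.1, 20.1 and 24.5 CPM in control hippocampus and 5.66 to 14.2 CPM (median 8.0) in GACamk hippocampus, against 7.26, 3.96, 4.96, 7.59 and 4.58 in control cortex and 3.86 to 7.60 CPM (median 7.13) in GACamk cortex. All 6 GACamk hippocampi were below all 4 controls, and the interaction was -1.89 ± 0.34 (SE, adjusted p = 0.00318). Wfs1, which encodes an endoplasmic reticulum membrane protein abundant in CA1 and in upper cortical layers, was at 45.3, 56.0, 62.2 and 59.9 CPM in control hippocampus and 24.1 to 37.7 CPM (median 30.7) in GACamk hippocampus. In cortex it was at 55.0, 63.4, 58.8, 68.9 and 74.5 CPM in controls and 55.0 to 99.4 CPM (median 64.0) in GACamk mice. The hippocampal groups were again apart and the cortical ones were not, with an interaction of -0.96 ± 0.19 (SE, adjusted p = 0.00944). Unlike Spink8 and Npy2r, Wfs1 was not called between the tissues of control mice (hippocampus over cortex -0.23 on the log2 scale, adjusted p = 0.277), while 2687 genes were (18.2%). That regional comparison uses the same control libraries as the interaction, so it is given as a level only. In bulk tissue, fewer cells of a type and less of a transcript in each cell cannot be told apart.

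Across the subfield lists, 2 of 6 CA1 genes (Spink8 and Wfs1) and 1 of 8 dentate granule cell genes (Lct, the lactase gene) had a lower hippocampal response. So did 1 of the 3 tested CA3 genes, Bok, a relative of the apoptosis regulator BCL2. The median interaction was -0.46 for CA1, -0.79 for CA3 and -0.17 for granule cells, against -0.018 over all tested genes. Lct was at a low level, 11.6, 6.85, 13.2 and 12.3 CPM in control hippocampus and 2.07 to 3.94 CPM (median 2.65) in GACamk hippocampus, with an interaction of -2.59 ± 0.57 (SE, adjusted p = 0.0194). Its call was lost without control cortex 31 or 38, GACamk cortex 41 or control hippocampus 37 (adjusted p up to 0.0635) and with the mouse as a fixed block (adjusted p = 0.0516). Bok fell in both tissues, at -1.34 in hippocampus and -0.43 in cortex (cortex adjusted p = 0.0347). The call of its interaction (-0.91 ± 0.19, SE, adjusted p = 0.0158) was lost without control cortex 31, control hippocampus 31 or control hippocampus 37 (adjusted p up to 0.072). The 6 tested CA2 genes were split, with 3 interactions above 0 and 3 below and a median of -0.11. In hippocampus 3 of them fell and 1 rose. The 2 called interactions, of Ccdc3 and Pcp4, were above 0. Amigo2, a cell adhesion gene of the list, fell by 0.96 in hippocampus (adjusted p = 0.000191) and was at -0.12 in cortex, with an interaction of -0.84 ± 0.29 (adjusted p = 0.243). Ccdc3, which encodes a secreted coiled-coil protein, rose by 1.37 in hippocampus from 10.3, 7.20, 8.63 and 7.63 CPM in controls to 14 to 26.5 CPM (median 21.2), and was at 0.17 in cortex. Its interaction of 1.2 ± 0.30 (SE, adjusted p = 0.0491) was lost in 16 of the 21 fits without 1 library (adjusted p up to 0.138). Pcp4, a calmodulin-binding peptide gene, fell by 0.91 in cortex and was at -0.25 in hippocampus (adjusted p = 0.161), an interaction of 0.66 ± 0.15 (SE, adjusted p = 0.032) that was lost in 10 of the 21 such fits.

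**Figure D2:**
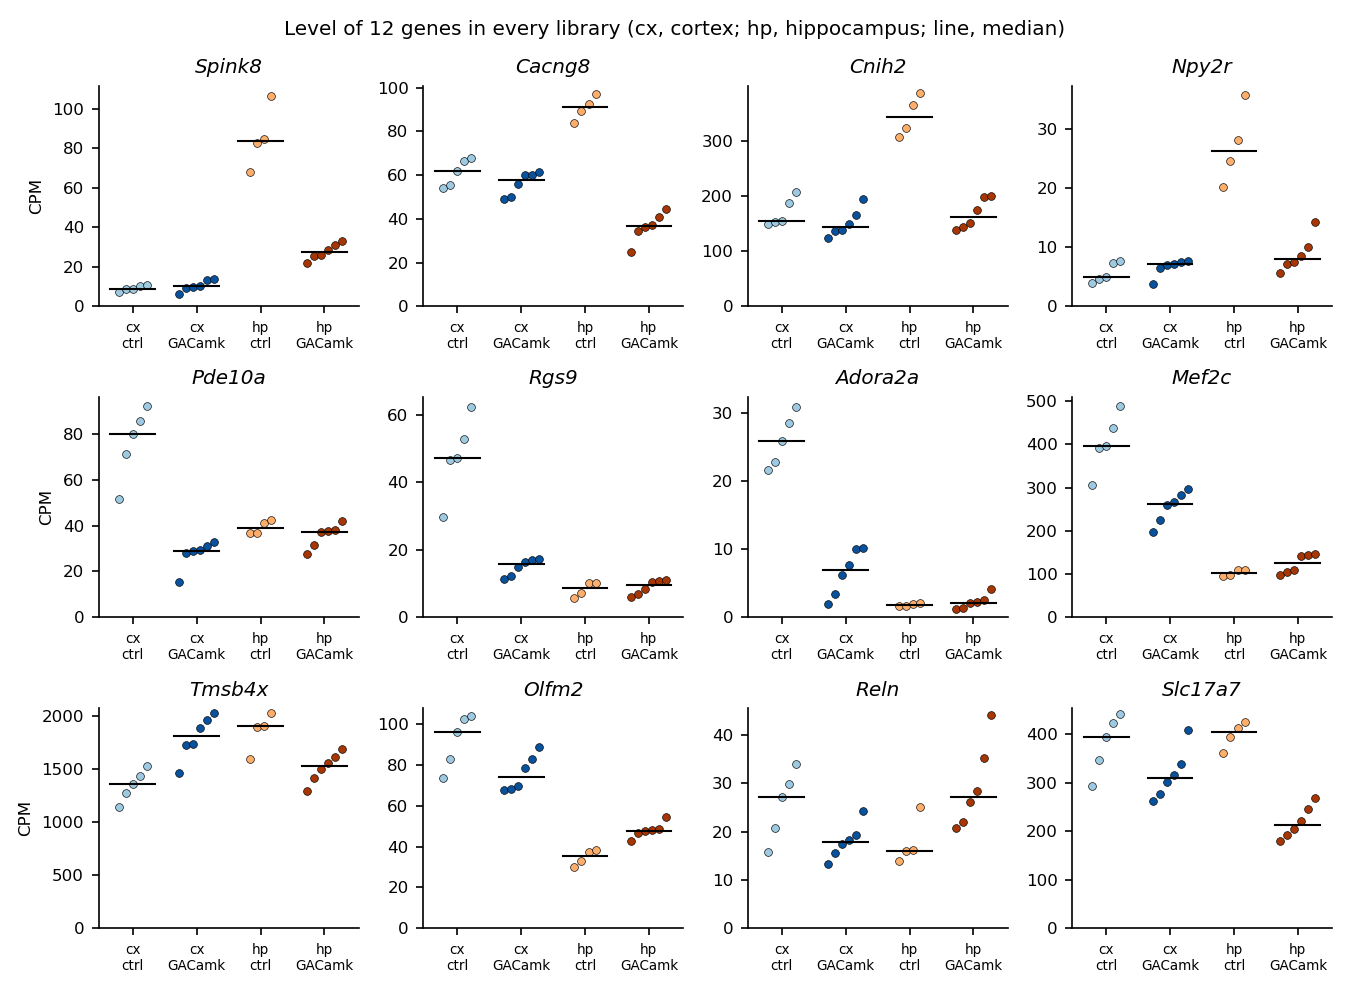
Level in CPM (y axis, from 0) of 12 genes in every library of the 4 groups (x axis), with a line at each group's median. Spink8, Cacng8, Cnih2 and Npy2r drop between the hippocampal groups only, Pde10a, Rgs9, Adora2a and Mef2c between the cortical groups only, and Tmsb4x and Olfm2 move in opposite directions, while Reln rises and Slc17a7 falls further in hippocampus.

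A pair of genes for auxiliary subunits of AMPA receptors fell in hippocampus and were not called in cortex. Cacng8, which encodes the AMPA receptor regulatory protein gamma-8, was at 97.1, 89.3, 92.7 and 83.9 CPM in control hippocampus and at 24.7 to 44.5 CPM (median 36.8) in GACamk hippocampus. In cortex it was at 66.4, 55.4, 54.2, 61.8 and 67.9 CPM in controls and 49.2 to 61.4 CPM (median 57.9) in GACamk mice. The hippocampal groups were far apart and the cortical groups overlapped, so that the order of the tissues turned over, hippocampus being above cortex in each of 4 control mice and below it in each of 6 GACamk mice. The interaction of Cacng8 was -1.19 ± 0.16 (SE, adjusted p = 9.37e-05). Cnih2, which encodes cornichon-2, another AMPA receptor auxiliary protein, was at 306, 323, 386 and 364 CPM in control hippocampus and 138 to 199 CPM (median 162) in GACamk hippocampus. It was at 152, 207, 154, 187 and 148 CPM in control cortex and 124 to 194 CPM (median 144) in GACamk cortex. Again only the hippocampal groups were apart, and the interaction was -0.91 ± 0.13 (SE, adjusted p = 0.000162). Shank1, a postsynaptic scaffold gene, fell by 0.87 in hippocampus and was at -0.21 in cortex (interaction -0.66 ± 0.16, SE, adjusted p = 0.0442), a call lost in 18 of the 21 fits without 1 library (adjusted p up to 0.206).

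Most glutamate receptor and scaffold genes had no called interaction. Of 27 tested receptor and scaffold genes, 10 were lower in GACamk cortex and 18 in GACamk hippocampus, and 3 (Cacng8, Cnih2 and Shank1) had a called interaction. The median interaction of the list was -0.10, with 16 members below 0 and 11 above. Shank3, a scaffold gene of the same family, was at -0.69 ± 0.21 (adjusted p = 0.145) and Grik4, a kainate receptor gene, at -0.79 ± 0.31 (adjusted p = 0.325). Homer1, a scaffold gene induced by activity, fell in both tissues and had an interaction of 0.59 ± 0.25 (adjusted p = 0.41). Homer3, a scaffold gene of the same family that is not in the list, was at 47.2, 38.8, 65.6 and 57.1 CPM in control hippocampus and 28.9 to 38.2 CPM (median 31.8) in GACamk hippocampus, and at 18.7, 23.8, 16.7, 21.1 and 20.6 in control cortex and 19.7 to 39.8 CPM (median 27.6) in GACamk cortex. Its hippocampal groups were apart and its cortical groups overlapped. Homer3 fell by 0.64 in hippocampus and was at 0.49 in cortex (adjusted p = 0.0558), and its interaction of -1.13 ± 0.23 (SE, adjusted p = 0.00944) stayed called whichever library was left out.

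Genes beside Cacng8 on chromosome 7 were looked at after its value was seen. Coordinates are those of GENCODE M21 on GRCm38, whereas the counts were made on GRCm39. Whether counting used the strand is not given in the sources used here. Gm44257 is a long noncoding RNA gene on the minus strand at chr7:3378121-3390080, and ends 602 bases before the plus-strand gene Cacng8 at chr7:3390683-3415648. It was at 139, 100.5, 123 and 102 CPM in control hippocampus and 28.3 to 60.5 CPM (median 39.5) in GACamk hippocampus. In cortex it was at 68.4, 62.4, 63.1, 70.5 and 76.5 CPM in controls and 44.4 to 83.3 CPM (median 64.4) in GACamk mice. Like Cacng8, it was lower in all GACamk hippocampi than in any control and overlapped in cortex, with an interaction of -1.41 ± 0.22 (SE, adjusted p = 0.00201). Cacng7, the gene of another AMPA receptor regulatory protein, lies on the other side of Gm44257 at chr7:3332955-3368221. Its fold change was -0.13 in hippocampus and -0.19 in cortex, an interaction of 0.066 ± 0.26 (SE, adjusted p = 0.973), so no fall was called in this neighbour. The long noncoding RNA gene 3300002P13Rik lies 6016 bases beyond the other end of Cacng8. It fell in hippocampus (-1.02, adjusted p = 0.00573) and was at -0.65 in cortex (adjusted p = 0.262). Its interaction of -0.36 ± 0.46 (SE, adjusted p = 0.863) was not called.

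Gabra5, Cpne6, Cck and Chgb also fell in hippocampus. Gabra5, the alpha-5 subunit of the GABA-A receptor, known for its high level in hippocampus, was at 158, 124, 146 and 118 CPM in controls and 54.6 to 73.7 CPM (median 65.5) in GACamk hippocampus. Its cortical levels were 53.9, 57.4, 46.8, 47.7 and 67.3 CPM in controls and 44.5 to 56.4 CPM (median 50.8) in GACamk mice, and the interaction was -0.97 ± 0.16 (SE, adjusted p = 0.00102). Cpne6, a calcium-dependent phospholipid-binding protein of excitatory neurons, fell by 0.64 in hippocampus and was at 0.22 in cortex (adjusted p = 0.0907), an interaction of -0.87 ± 0.12 (SE, adjusted p = 0.000129). Cck, the cholecystokinin gene, was at 473, 523, 585 and 575 CPM in control hippocampus and 209.6 to 309.7 CPM (median 286) in GACamk hippocampus. The fall of 0.97 compares with -0.24 in cortex (adjusted p = 0.117) and an interaction of -0.73 ± 0.15 (SE, adjusted p = 0.00944). Chgb, a granin of dense-core vesicles, fell by 1.11 in hippocampus and was at -0.33 in cortex. Its interaction of -0.78 ± 0.16 (SE, adjusted p = 0.0133) was not called without control hippocampus 31 (adjusted p = 0.0837). Of 16 neuropeptide genes, Cck alone had a called interaction, and 12 of the 16 lay below 0.

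The promoters of called genes were read for short motifs, since Neurod6 and its relatives bind the E-box and activity-dependent genes often carry cyclic AMP response elements. RefSeq starts on GRCm38.p6 were at hand for 72 of the 93 called and 9788 of the tested genes, and the 250 bases before each start were searched on both strands. An E-box (CANNTG) was found for 29 of the 35 genes with a lower hippocampal response (82.9%), 24 of the 37 with a higher one (64.9%) and 61.8% of all tested genes. The core of the cyclic AMP response element (TGACG) was found for 22.9%, 21.6% and 30.7%. The AP-1 motif (TGANTCA) was found for 1 of 35 (2.86%), 6 of 37 (16.2%, Mef2c and Arpp21 among them) and 5.39%. The motif of MEF2 factors was found for 0 of 35, 1 of 37 (2.7%) and 3.34%. Matches of different motifs may overlap, and these shares are descriptions without a test. Promoters of 4 genes that fell in hippocampus and 2 that fell in cortex show the range, from none to 4 E-boxes. Each is printed 5′ to 3′ on its gene's strand, with E-boxes and TGACG (or its complement CGTCA) in capitals.
Gabra5 (chr7:57510060-57510309, minus strand): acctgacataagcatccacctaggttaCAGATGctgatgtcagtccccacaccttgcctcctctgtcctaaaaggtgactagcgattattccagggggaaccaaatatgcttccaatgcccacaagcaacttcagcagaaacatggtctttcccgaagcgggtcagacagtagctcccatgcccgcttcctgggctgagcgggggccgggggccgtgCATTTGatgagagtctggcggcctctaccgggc
Npy2r (chr3:82548086-82548335, minus strand): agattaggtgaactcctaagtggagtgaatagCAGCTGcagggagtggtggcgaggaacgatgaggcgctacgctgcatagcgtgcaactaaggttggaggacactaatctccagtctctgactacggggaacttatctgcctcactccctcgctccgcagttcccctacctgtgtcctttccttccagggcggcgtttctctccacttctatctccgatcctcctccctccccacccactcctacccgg
Cck (chr9:121495695-121495944, minus strand): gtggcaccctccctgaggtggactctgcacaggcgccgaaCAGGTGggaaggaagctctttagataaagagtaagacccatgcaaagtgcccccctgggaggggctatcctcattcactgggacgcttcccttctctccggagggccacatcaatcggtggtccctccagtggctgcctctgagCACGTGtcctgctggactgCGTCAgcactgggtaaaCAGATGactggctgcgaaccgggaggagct
Cnih2 (chr19:5098522-5098771, minus strand): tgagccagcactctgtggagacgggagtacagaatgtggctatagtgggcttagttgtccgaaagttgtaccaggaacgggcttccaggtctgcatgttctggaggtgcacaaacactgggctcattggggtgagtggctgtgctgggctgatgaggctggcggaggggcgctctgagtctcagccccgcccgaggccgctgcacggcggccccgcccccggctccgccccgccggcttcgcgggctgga
Rgs9 (chr11:109298182-109298431, minus strand): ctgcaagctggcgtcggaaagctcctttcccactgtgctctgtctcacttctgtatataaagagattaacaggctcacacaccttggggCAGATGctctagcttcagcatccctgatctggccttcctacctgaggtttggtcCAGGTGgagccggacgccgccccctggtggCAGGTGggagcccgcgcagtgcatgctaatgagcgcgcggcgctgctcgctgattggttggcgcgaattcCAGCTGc
Adcy5 (chr16:35154614-35154863, plus strand): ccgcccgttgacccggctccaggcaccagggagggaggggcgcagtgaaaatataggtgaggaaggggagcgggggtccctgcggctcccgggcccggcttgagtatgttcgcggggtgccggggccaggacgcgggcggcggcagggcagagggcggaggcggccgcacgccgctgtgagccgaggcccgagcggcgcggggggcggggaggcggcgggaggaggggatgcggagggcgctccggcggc
The Rgs9 window held 4 E-boxes, Cck 3 and a TGACG core, Gabra5 2 and Npy2r 1. The Cnih2 and Adcy5 windows held neither motif, with a GC content of 65.6% and 78.0%, so genes called in the same direction differed in these letters.

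A pair of genes that mark excitatory neurons fell in both tissues, and further in hippocampus. Neurod6, a basic helix-loop-helix transcription factor of pyramidal cells, was at 175, 145, 174 and 143 CPM in control hippocampus and 24 to 51.7 CPM (median 41.7) in GACamk hippocampus, against 84.0, 69.3, 55.3, 45.5 and 61.6 in control cortex and 29.0 to 48.5 CPM (median 32.8) in GACamk cortex. It fell by 1.99 in hippocampus and by 0.76 in cortex, and the interaction of -1.23 ± 0.27 (SE, adjusted p = 0.0425) lost its call in 15 of the 21 fits without 1 library (adjusted p up to 0.137). Slc17a7, the vesicular glutamate transporter VGLUT1, fell by 0.87 in hippocampus from 413, 361, 393 and 426 CPM to 179 to 268 CPM (median 213) and by 0.27 in cortex. Its interaction of -0.60 ± 0.13 (SE, adjusted p = 0.0182) was lost without control cortex 11, GACamk cortex 23 or control hippocampus 31 (adjusted p up to 0.0857). Over 13 excitatory identity genes, 9 fell in each tissue. The interaction was called lower in hippocampus for 2 of them, Neurod6 and Slc17a7, and higher for 1, Mef2c, which fell in cortex, with a list median of -0.26. The mean log2 CPM of 7 excitatory markers, Neurod6 and Slc17a7 among them, moved with these genes. It was 6.96 to 7.22 in control and 5.91 to 6.46 in GACamk hippocampus, and 6.87 to 7.24 in control and 6.45 to 6.72 in GACamk cortex. None of the 7 was at 0 in any group, and their part in the calls above was not tested.

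Tmsb4x rose in cortex and fell in hippocampus. Tmsb4x, which encodes the actin-sequestering peptide thymosin beta-4, was at 1267, 1529, 1140.2, 1431 and 1358 CPM in control cortex and 1462 to 2026 CPM (median 1807) in GACamk cortex. In hippocampus it was at 1587, 1892, 2021 and 1902 CPM in controls and 1295 to 1684 CPM (median 1527) in GACamk mice. The groups overlapped in each tissue, yet Tmsb4x rose by 0.43 in cortex (adjusted p = 0.000259) and fell by 0.29 in hippocampus (adjusted p = 0.0172). The hippocampus minus cortex difference within a mouse was 0.31 to 0.83 (log2) in 4 control mice and -0.60 to -0.049 in 6 GACamk mice, with no overlap, and the interaction was -0.72 ± 0.12 (SE, adjusted p = 0.000881). Arpc5, a subunit of the ARP2/3 complex that branches actin filaments, fell by 0.42 in hippocampus and was at 0.27 in cortex (adjusted p = 0.0517), with an interaction of -0.70 ± 0.13 (SE, adjusted p = 0.00614). Nsmf, a synapse-to-nucleus messenger of NMDA receptors, also fell in hippocampus alone (-0.51 against 0.19), an interaction of -0.70 ± 0.12 (SE, adjusted p = 0.00102).

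Members of a list of striatal projection neuron genes made up 6 of the 31 genes that fell in cortex and were not called in hippocampus. Of 18 listed genes, 17 were tested, 16 fell in GACamk cortex and 1 in GACamk hippocampus, and 6 had a called interaction. The median fold change was -1.37 in cortex and -0.036 in hippocampus, and the median interaction was 1.21. Pde10a, a phosphodiesterase that breaks down cyclic nucleotides, was at 79.8, 51.5, 85.4, 92.2 and 71.3 CPM in control cortex and 15.4 to 32.9 CPM (median 29.1) in GACamk cortex. In hippocampus it was at 37.0, 42.3, 36.8 and 40.9 CPM in controls and 27.6 to 42.1 CPM (median 37.3) in GACamk mice. The cortical groups were apart and the hippocampal ones overlapped, with an interaction of 1.36 ± 0.21 (SE, adjusted p = 0.000554). Rgs9, a regulator of G-protein signalling, was at 52.9, 29.7, 47.1, 62.4 and 46.7 CPM in control cortex and 11.5 to 17.4 CPM (median 15.7) in GACamk cortex, against 10.3, 10.0, 5.76 and 7.17 in control hippocampus and 6.01 to 11 CPM (median 9.44) in GACamk hippocampus. The interaction was 1.71 ± 0.28 (SE, adjusted p = 0.000985), the cortical groups being apart. Adcy5, an adenylyl cyclase whose promoter window held no E-box against 4 for Rgs9, was at 77.8, 64.3, 84.7, 71.0 and 63.6 CPM in control cortex and 21.2 to 43.1 CPM (median 36.1) in GACamk cortex, and at 38.6, 33.6, 29.4 and 31.9 in control hippocampus and 27.0 to 44.0 CPM (median 34.1) in GACamk hippocampus. The fold change was -1.05 in cortex and 0.035 in hippocampus (interaction 1.08 ± 0.19, SE, adjusted p = 0.00258). Adora2a, an adenosine receptor, was at 25.9, 22.8, 21.6, 30.9 and 28.6 CPM in control cortex and 2.02 to 10.1 CPM (median 6.96) in GACamk cortex. Its hippocampal level was low, at 1.61, 1.93, 1.73 and 2.08 CPM in controls and 1.26 to 4.13 CPM (median 2.16) in GACamk mice. The interaction of 2.19 ± 0.47 (SE, adjusted p = 0.0182) missed the threshold without control hippocampus 20 (adjusted p = 0.0509).

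The dopamine receptor Drd1 (1.52 ± 0.39, adjusted p = 0.0545), the phosphatase inhibitor gene Ppp1r1b (1.55 ± 0.41, adjusted p = 0.136) and the enkephalin gene Penk (1.34 ± 0.37, adjusted p = 0.152) had interactions of similar size that did not pass. Penk was at 628, 625, 433, 897 and 656 CPM in control cortex and 124 to 381 CPM (median 221) in GACamk cortex. A score of 12 striatal markers, which shares members with this list, was 5.28 to 5.77 mean log2 CPM in control cortex, 3.64 to 4.53 in GACamk cortex, 3.35 to 3.61 in control hippocampus and 3.20 to 3.63 in GACamk hippocampus. Every one of the 12 had counts in each group. The 2 cortical groups did not overlap, and the score was higher in all 11 cortical libraries than in all 10 hippocampal ones. How much striatum each cortical dissection held was not tested. For this list, a different share of striatal tissue cannot be told apart from a lower level in cortical neurons. The same holds for genes outside the list that are abundant in striatum, such as Arpp21.

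**Figure D3:**
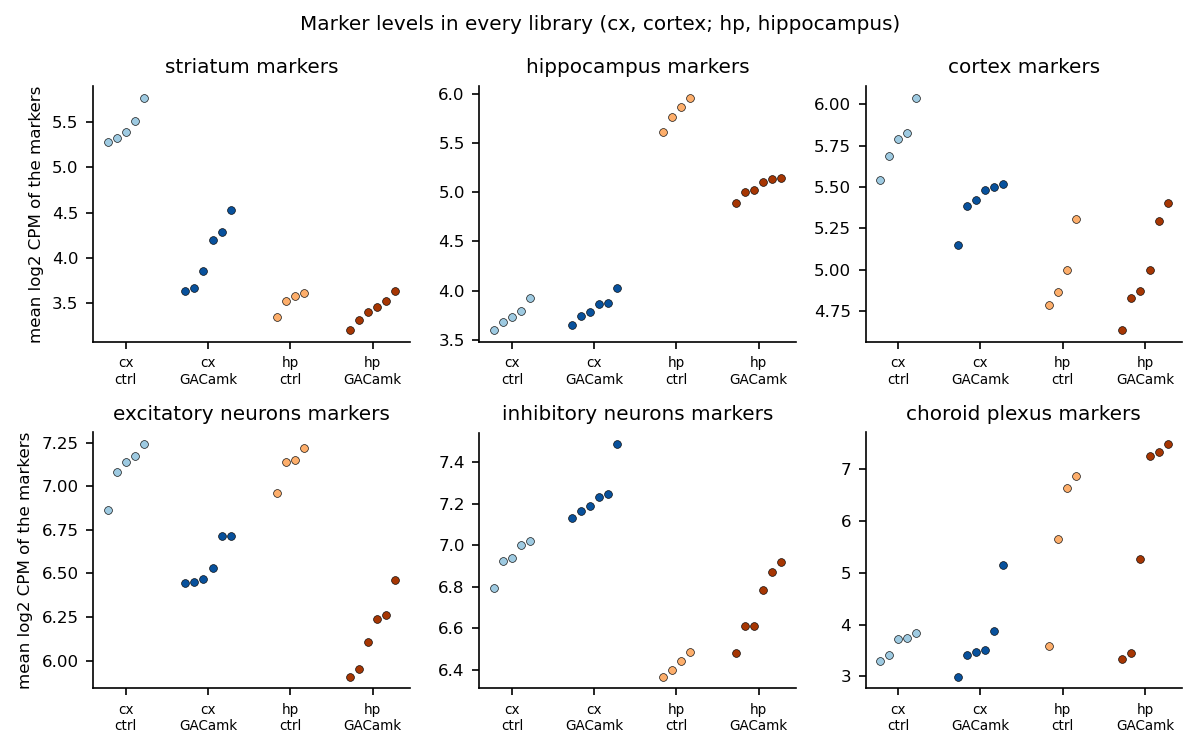
Mean log2 CPM (y axis) of 6 marker lists in every library of the 4 groups (x axis), drawn from the lowest to the highest within a group. Spink8, Wfs1 and Lct, which had called interactions, are among the hippocampal markers. Striatal markers separate control from GACamk cortex and overlap in hippocampus, hippocampal markers are lower in GACamk than in control hippocampus, excitatory markers are lower in GACamk than in control libraries of both tissues, inhibitory markers lie higher in GACamk libraries of both, with an overlap in hippocampus, cortical markers are lower in GACamk cortex, and choroid plexus markers vary widely within both hippocampal groups.

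Mef2c, Ngef, Arpp19, Arpp21 and Impad1, which are not in the striatal list, fell in cortex and were not called in hippocampus. Mef2c, a transcription factor of excitatory neurons, was at 392, 396, 490.2, 306 and 439 CPM in control cortex and 197 to 296 CPM (median 263) in GACamk cortex, without overlap. In hippocampus it was at 96.7, 109, 98.4 and 109 CPM in controls and 96.9 to 147 CPM (median 126) in GACamk mice, with overlap. The interaction of 0.93 ± 0.18 (SE, adjusted p = 0.00944) had an adjusted p of 0.0722 with the mouse as a fixed block. Ngef, a guanine nucleotide exchange factor of ephrin signalling, was at 175, 182, 200.2, 186 and 184 CPM in control cortex and 75.3 to 133.7 CPM (median 116) in GACamk cortex, an interaction of 0.73 ± 0.15 (SE, adjusted p = 0.00944). Arpp19 and Arpp21 encode phosphoproteins regulated by cyclic AMP, and Arpp21 is also abundant in striatum. Arpp19 fell by 0.51 in cortex and was at 0.15 in hippocampus (interaction 0.65 ± 0.12, SE, adjusted p = 0.00276). Arpp21 fell by 0.90 and was at -0.20 (interaction 0.70 ± 0.15, SE, adjusted p = 0.0136, adjusted p = 0.052 without control hippocampus 37). Impad1, an inositol monophosphatase family gene, fell by 0.53 in cortex and was at 0.21 in hippocampus, an interaction of 0.74 ± 0.15 (SE, adjusted p = 0.013). The 8 cortical markers averaged 5.55 to 6.04 mean log2 CPM in control and 5.15 to 5.52 in GACamk cortex, none of them at 0, and their part in these values was not tested.

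None of 8 upper-layer and 11 deep-layer marker genes had a called interaction, with medians of 0.47 and 0.36. Of these, 2 upper-layer and 3 deep-layer genes fell in cortex. The forkhead gene Foxp2 was at 0.87 ± 0.30 (adjusted p = 0.234). In cortex 16 of 27 potassium channel genes fell, and in hippocampus 6. The interaction was called for 2 of them. Kcnk2, a leak channel, fell in cortex (-0.81) and was at -0.0074 in hippocampus (interaction 0.80 ± 0.19, SE, adjusted p = 0.0382), and Kcnab2, an auxiliary beta subunit, fell in hippocampus (-0.76) and was at -0.18 in cortex (interaction -0.58 ± 0.13, SE, adjusted p = 0.0208). The calls of Kcnk2 and Kcnab2 were lost in 13 and 6 of the 21 fits without 1 library. Of 22 activity-dependent genes, 12 fell in cortex, 8 in hippocampus, and none had a called interaction, 18 lying above 0 with a median of 0.34. Egr3, an immediate early transcription factor, fell by 1.55 in cortex and 0.73 in hippocampus, and its interaction of 0.83 ± 0.26 (SE, adjusted p = 0.173) had an adjusted p of 0.018 with the mouse as a fixed block.

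Olfm2 rose in hippocampus and fell in cortex, the reverse of Tmsb4x and Ly6e. Olfm2 encodes a secreted olfactomedin-domain protein and was at 38.6, 33.2, 29.9 and 37.5 CPM in control hippocampus and 42.8 to 54.7 CPM (median 47.7) in GACamk hippocampus, without overlap. It was at 103, 83.2, 104, 73.7 and 95.9 CPM in control cortex and 67.5 to 89.0 CPM (median 74.1) in GACamk cortex, with overlap (cortex adjusted p = 0.0481), and the interaction was 0.73 ± 0.14 (SE, adjusted p = 0.00944). Ly6e, an interferon-induced membrane protein gene, rose by 0.36 in cortex and fell by 0.33 in hippocampus (adjusted p = 0.0264 and 0.0475). Its interaction of -0.69 ± 0.16 (SE, adjusted p = 0.0278) was lost in 14 of the 21 fits without 1 library (adjusted p up to 0.13). Among the 12 genes that rose in hippocampus and were not called in cortex were Rxrg, Reln and Ccdc3. In cortex Rxrg was at -0.58 (adjusted p = 0.0512) and Reln at -0.57 (adjusted p = 0.0736), each just short of a called fall. Rxrg, the retinoid X receptor gamma, was at 5.79, 5.27, 8.06 and 3.70 CPM in control hippocampus and 6.19 to 14 CPM (median 10.4) in GACamk hippocampus, against 24.9, 21.8, 20.6, 31.5 and 20.0 in control cortex and 11.6 to 22.2 CPM (median 13) in GACamk cortex. The groups overlapped in each tissue, and the interaction was 1.58 ± 0.32 (SE, adjusted p = 0.00944). Reln, the secreted glycoprotein reelin made by interneurons in the adult brain, was at 25.1, 13.9, 16.1 and 16 CPM in control hippocampus and 20.8 to 44.0 CPM (median 27.3) in GACamk hippocampus. It was at 20.7, 15.8, 34, 27.1 and 29.8 CPM in control cortex and 13.3 to 24.3 CPM (median 17.8) in GACamk cortex, and the interaction of 1.28 ± 0.29 (SE, adjusted p = 0.0332) was lost in 10 of the 21 fits without 1 library (adjusted p up to 0.112). The 6 inhibitory neuron markers averaged 6.37 to 6.48 mean log2 CPM in control and 6.48 to 6.92 in GACamk hippocampus, and 6.79 to 7.02 and 7.13 to 7.49 in cortex. The 4 ependymal markers averaged 3.04 to 3.45 and 3.18 to 4.19 in hippocampus, and 2.12 to 2.62 and 2.48 to 3.01 in cortex. The 3 neuroblast markers scored averaged 3.73 to 4.10 mean log2 CPM in control and 4.21 to 4.77 in GACamk hippocampus, and 3.60 to 4.46 and 3.82 to 4.36 in cortex. The 5 meningeal markers scored averaged 3.60 to 4.11 and 4.05 to 5.63 in hippocampus, and 3.56 to 3.86 and 3.60 to 4.46 in cortex. GACamk hippocampus 41 was the highest library for the meningeal markers (5.63) and for 4 blood markers (9.93), and without it Rxrg, Reln and Ccdc3 were still called. The part of these cell types in the rises was not tested. Of 12 interneuron genes, 4 rose in hippocampus, and 2 rose and 1 fell in cortex. Reln was the single called interaction among them, and their median interaction was 0.019. Id2 and Id4, named after their values were seen, encode inhibitors of basic helix-loop-helix factors and rose in hippocampus by 0.47 and 0.75, with -0.058 and 0.069 in cortex and interactions of 0.53 and 0.68 (adjusted p = 0.0446 and 0.0332). Their calls were lost in 14 and 6 of the 21 fits without 1 library. Drap1, a transcriptional corepressor, was 1 of the 5 genes that rose in cortex alone (0.48 against -0.12), with an interaction of -0.59 ± 0.11 (SE, adjusted p = 0.00614).

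The normal regional level of the genes with a called interaction lay on either side. In control mice, the log2 level of hippocampus over cortex was 3.21 for Spink8, 2.33 for Npy2r, 1.42 for Cpne6, 1.39 for Neurod6, 1.32 for Gabra5, 1.01 for Cnih2 and 0.57 for Cacng8, all of which had a lower hippocampal response. It was -0.041 for Cck and -0.23 for Wfs1, with the same direction of response. For genes with a higher hippocampal response it was -3.80 for Adora2a, -2.49 for Rgs9, -2.12 for Rxrg, -1.95 for Mef2c, -1.37 for Olfm2 and -1.10 for Adcy5, and -0.031 for Impad1. Genes such as Cacng8 and Pde10a reached their lower GACamk level in the tissue where controls had the higher one, and Cck and Impad1 changed from like levels in both tissues.

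The tissues were also compared within each mouse. The hippocampus minus cortex difference of log2 CPM did not overlap between the 4 control and 6 GACamk mice for 482 of the 14751 genes (3.27%). Among the 93 called genes it did not overlap for 73, a count read from the same libraries as the calls. For Cacng8 the difference was 0.44 to 0.76 in control mice and -0.97 to -0.42 in GACamk mice. For Spink8 it was 2.55 to 3.76 and 0.86 to 2.29, and for Pde10a -1.19 to -0.28 and -0.24 to 1.00. Mice 16, 23, 31, 37 and 41 had their 2 libraries in different batches, which this difference does not adjust for. With the mouse as a random block (limma-voom), 148 genes were called, the 93 among them, and with the mouse as a fixed block (edgeR, 10 mice) 120, with 79 of the 93.

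**Figure D4:**
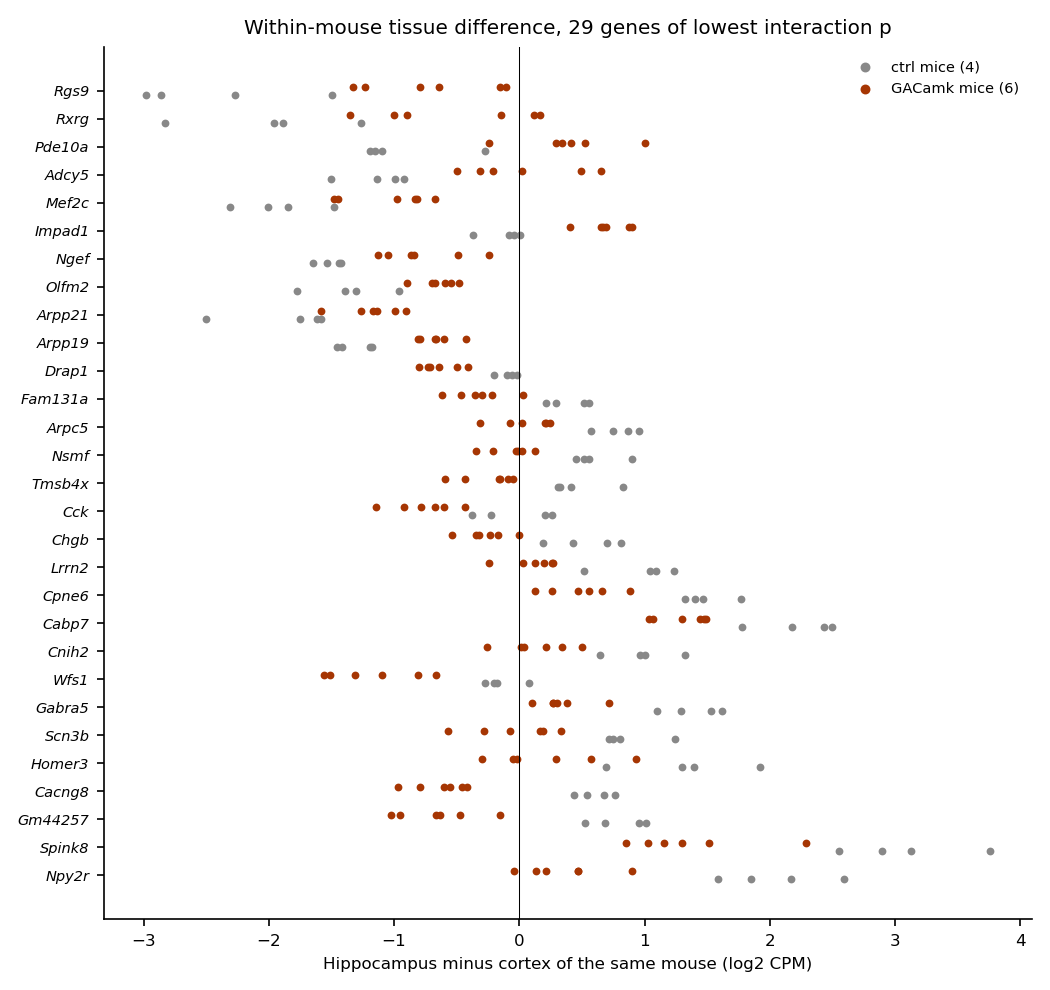
Hippocampus minus cortex of the same mouse in log2 CPM (x axis) for 29 genes with the lowest interaction p (rows), one point per mouse, 4 control (grey) and 6 GACamk (red). Points of the genotypes do not overlap for most genes. They overlap for Rxrg and Homer3 and nearly touch for others, Mef2c and Arpp21 among them.

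Genes of activated microglia rose in both tissues. Of 23 disease-associated microglia genes, 22 rose in cortex and 21 in hippocampus and none had a called interaction, with a median fold change of 1.88 and 1.72. Their interactions were below 0 for 19 genes and above 0 for 4 (median -0.24), and 4 had an unadjusted p under 0.05. Cst7, the cystatin F gene of activated microglia, rose by 3.89 in cortex and 3.45 in hippocampus. Its interaction was -0.43 with a 95% interval of -1.89 to 1.02. Ccl3, a chemokine gene, rose by 3.97 and 3.28 (interaction -0.69, -2.19 to 0.81). Cd52, a leukocyte surface glycoprotein gene, rose by 2.49 and 2.66 (interaction 0.17, -0.58 to 0.92), and the chemokine gene Ccl6 by 2.66 and 2.61 (interaction -0.045, -0.80 to 0.71). Cd14, Bcl2a1b, Ccl12 and Cd74 were the other 4 of the 8 largest shared rises, with interactions from -0.41 to -0.071. The intervals of Cst7 and Ccl3 reach below a difference of -1 on the log2 scale, and those of Cd52 and Ccl6 do not. B2m, the light chain of MHC class I, was at 197, 223, 200.2, 209 and 226 CPM in control cortex and 620.3 to 1192 CPM (median 716) in GACamk cortex, and at 186, 204, 215 and 208 in control hippocampus and 399 to 613 CPM (median 558) in GACamk hippocampus. The groups were apart in each tissue. The interaction was -0.56 ± 0.18 (SE, adjusted p = 0.216), and with the mouse as a fixed block the adjusted p was 0.00947.

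None of the complement (10 tested), chemokine (12), MHC class I (11) and class II (6) genes had a called interaction, nor did any of 10 reactive and 12 homeostatic astrocyte or 10 homeostatic microglia genes. In cortex and hippocampus, 7 and 9 complement, 9 and 8 chemokine, 8 and 9 MHC class I, and 3 and 3 MHC class II genes rose. So did 7 and 9 reactive astrocyte, 7 and 7 homeostatic astrocyte and 5 and 5 homeostatic microglia genes. The median interaction was -0.049 for complement, -0.26 for chemokines, -0.33 and -0.48 for the MHC lists, 0.13 for reactive astrocytes, -0.014 for homeostatic astrocytes and -0.20 for homeostatic microglia. Of the MHC genes, 9 of 11 in class I and 6 of 6 in class II had an interaction below 0. Of 20 interferon-response genes, 19 rose in cortex and 17 in hippocampus, and Ly6e alone had a called interaction (median -0.014). The oligodendrocyte and lipid lists also showed no called interaction, over 14 disease-associated oligodendrocyte genes (median -0.16), 12 myelin genes (-0.0072), 5 precursor genes (-0.12), 18 sterol synthesis genes (0.12) and 13 cholesterol export and storage genes (-0.024). Of the first list 9 genes rose in cortex and 11 in hippocampus, of the myelin list 1 and 2, of the precursors 0 and 1, and of the last list 6 and 7. Sterol synthesis genes had 4 members lower in cortex and 1 in hippocampus. No interaction was called among 12 integrated stress response genes (median -0.067), 7 p53 targets (0.16) or 9 heat shock protein genes (-0.18), of which 2 fell in cortex and 6 in hippocampus. Of 18 tested genes of a list of receptors for serotonin, acetylcholine, NPY and other transmitters, which holds Drd1 and not Adora2a, 3 fell in cortex, 4 fell in hippocampus and Npy2r alone had a called interaction (median 0.23). Chrm1, the muscarinic M1 receptor, was just outside the threshold (-0.57 ± 0.14, SE, adjusted p = 0.0526).

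**Figure D5:**
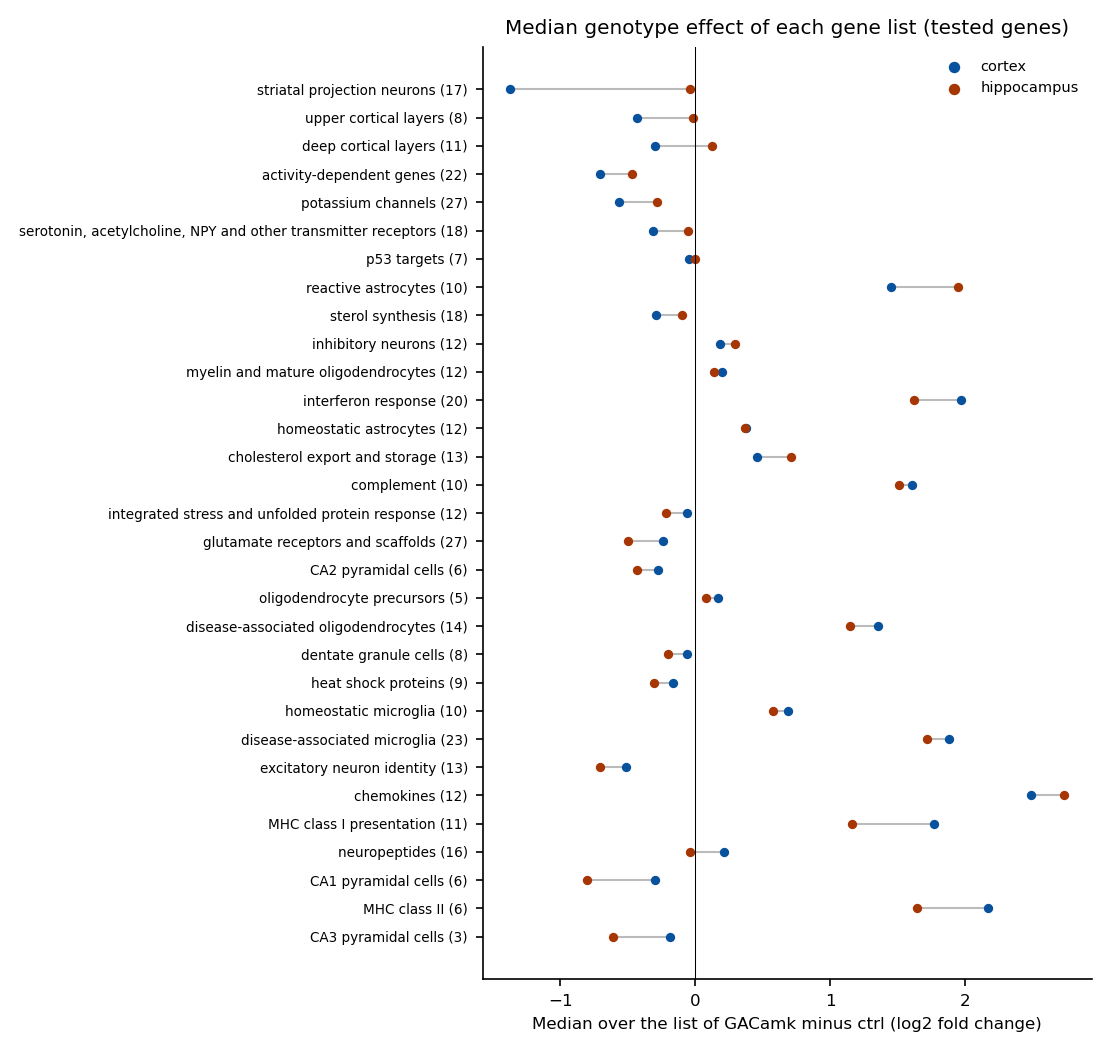
Median log2 fold change of GACamk over ctrl (x axis) in cortex and hippocampus for each of 31 gene lists (rows, tested genes in brackets), ordered by the median interaction. Immune and glial lists lie right of 0 in both tissues, and the striatal list has the widest gap, with cortex at -1.37 and hippocampus at -0.036.

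Genes on either side of the threshold had similar values. Just inside it were Ipcef1 (1.21 ± 0.30, SE, adjusted p = 0.0496), Endou (2.24, adjusted p = 0.04995) and Tmem178 (-0.64, adjusted p = 0.04995), and just outside it Ttc39b (0.94 ± 0.24, SE, adjusted p = 0.0509), 1700019D03Rik (1.04 ± 0.26, SE, adjusted p = 0.0525) and Chrm1. At an unadjusted p under 0.05, 1490 genes passed.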

How the data were processed

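RNA from microdissected cortex and hippocampus was measured by prime-seq, a bulk 3' RNA-seq method, in 21 libraries. The authors deposited 1 table of raw counts per gene and library, with 64362 rows, made per the labels and the study's methods with FastQC 0.11.8, cutadapt 1.12, STAR and zUMIs on the mm39 (GRCm39) mouse genome. The submitters' processing notes also name DESeq2 1.44. Whether the counts are molecules or reads, the annotation release, the use of intronic reads and the strand setting are not given in the sources used here. Counting on 3' ends reads no transcript length, so levels were compared within a gene only.

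Groups came from the labels. The GFP row (3.38e-05% of counts) was left out of library sizes and tests, and 0 count columns were unused. Counts were filtered with filterByExpr (minimum count 10), scaled by TMM and fitted with edgeR 4.0.16 in R 4.3.3 (robust quasi-likelihood, 4 groups plus batch), with Benjamini-Hochberg adjustment over all 14751 genes and a threshold of 0.05. The study's methods name DESeq2 and state no interaction. CPM were TMM-scaled, and log2 CPM used a prior count of 2. The SE was taken from the fold change and its F statistic. The code was tested on simulated data.

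Libraries with the same mouse number come from the same animal. The reported fit has batch and no mouse term, and the mouse was a block in alternatives. The deviations of a mouse's libraries from the group means, from which batch was not removed, correlated at 0.142 to 0.284 in the 5 mice with both libraries in 1 batch and at -0.229 to -0.0667 in the 5 with libraries in different batches. These values follow the batch and do not settle the pairing. With batch in the model, the consensus correlation of the 2 libraries of a mouse was 0.0965 (limma). Among 46 pairs of libraries of a group, 0 were identical and chi-square per degree of freedom was 2.1 to 15.1, so each counted as 1 sample. Alternatives changed scaling, test (DESeq2 1.42.0, limma 3.58.1), block, batch, filter, depth and the libraries left in. A choroid plexus covariate and the male mice alone were added after seeing the data.

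The members and the gene lists were chosen with earlier results of these data known. Named genes were the 30 with the lowest interaction p, the 5 largest non-overlapping differences in each direction, opposite responders, up to 4 members a list with an unadjusted p under 0.05, and the 8 largest shared responders. Others are given as chosen after their values were seen, as are the neighbours of the threshold. Promoter sequences are RefSeq, GRCm38.p6. The called genes Cnih2, Cabp7, Fam131a, Drap1, Akap9 and Arpp21 share exon positions with a tested gene on the opposite strand, so their counts are uncertain in part. The result of 1 called gene is not reported here.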

Additional observations from a re-analysis of the deposited data

Results flagged for a closer look

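Single libraries stood apart from their group for 7 of 204 groups of values examined (3.43%), where chance alone gives about 1 in 20. Pde10a was at 15.4 CPM in GACamk cortex 23, next to 28.0 in the nearest library. GACamk cortex 16 was low for Npy2r, at 3.86 CPM against 6.40 in the nearest library, and for Ngef, at 75.3 against 115. Cck was at 363 CPM in GACamk cortex 30 against 461, and Chgb at 49.5 CPM in GACamk hippocampus 16 against 69.8. The inhibitory neuron markers averaged a log2 CPM of 7.49 in GACamk cortex 41 against 7.25, and the cortical markers 5.15 in GACamk cortex 35 against 5.39. None of the 5 genes lost its call without the library named.

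The response differed between the tissues, by the test of the interaction itself, for 42 named genes. It was lowest in hippocampus relative to cortex, on the log2 scale, at -2.59 for Lct, -1.89 for Npy2r, -1.83 for Spink8, -1.41 for Gm44257, -1.24 for Lor, -1.23 for Neurod6, -1.19 for Cacng8, -1.13 for Homer3, -1.01 for Scn3b and -0.97 for Gabra5. The next values were -0.96 for Wfs1, -0.91 for Bok, -0.91 for Cnih2, -0.91 for Cabp7, -0.87 for Cpne6, -0.82 for Lrrn2, -0.78 for Chgb, -0.73 for Cck, -0.72 for Tmsb4x and -0.70 for Nsmf. The calls of Lor, Scn3b and Cabp7 were lost in 1, 2 and 1 of the 21 fits without 1 library. Smaller differences were -0.70 for Arpc5, -0.69 for Ly6e, -0.69 for Fam131a, -0.66 for Shank1, -0.60 for Slc17a7, -0.59 for Drap1 and -0.58 for Kcnab2. It was higher in hippocampus at 2.19 for Adora2a, 1.71 for Rgs9, 1.58 for Rxrg, 1.36 for Pde10a, 1.28 for Reln, 1.2 for Ccdc3, 1.08 for Adcy5 and 0.93 for Mef2c, and at 0.80 for Kcnk2, 0.74 for Impad1, 0.73 for Ngef, 0.73 for Olfm2, 0.70 for Arpp21, 0.66 for Pcp4 and 0.65 for Arpp19. The GFP row of the transgene, outside these comparisons, held 13 counts over the 12 GACamk libraries and 4 over the 9 control libraries.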

How the results depend on the processing

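The 93 genes kept their direction in every fit in which they were tested, and 26 stayed called whichever of the 21 libraries was left out. Calls numbered 84 to 107 with another scaling, limma-voom quality weights, a batch term in each tissue, the stricter filter or the choroid plexus covariate (added after seeing the data), 118 without the filter and 127 with DESeq2. The count fell to 52 without the batch covariate, 15 with counts thinned to the smallest library, 4 in batch 1 alone and 2 in batch 2 alone, fits with fewer counts or libraries apart from the first, whose cause was not tested. In the 8 male mice alone (edgeR, added after seeing the data) it was 0, with 939 genes at an unadjusted p under 0.05. With the mouse as a random replicate block 148 genes were called and with a fixed block 120. The 79 genes called in both and in the reported fit do not include Lct, Mef2c, Ipcef1 and Endou. Leaving out 1 library gave 44 to 87 calls. It was 47, 60, 59 and 61 without control cortex 31, control cortex 37, GACamk cortex 23 and GACamk cortex 35, and 60, 59, 50 and 44 without control hippocampus 11, 20, 31 and 37. In the within-mouse difference, the 482 genes without overlap became 826 without the filter, where more genes were counted, and 249 with thinned counts.

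Of the named genes, those that changed sign were shared responders with no called interaction, for which the cause was not tested. Ccl3 was at 0.35 in male mice alone. In batch 2 alone Cd14 was at 0.0079, Bcl2a1b at 0.96 and Cd74 at 0.092. Ccl12 was at 0.39 in batch 1 alone, and the interaction of Ccl6 at 0.00059 with the stricter filter. Thinned counts gave 0.0093 for Cst7 and 0.16 for Cd74, the fixed block 0.21 for Bcl2a1b and DESeq2 0.020 for Cd74. Without 1 library the range was -0.046 to 0.34 for Cd52, -0.41 to 0.12 for Bcl2a1b, -0.38 to 0.18 for Ccl6 and -0.64 to 0.22 for Cd74. Depth limits the low genes, with a median half-width of the 95% interval of 0.92 for genes under a log2 CPM of 3 and 0.26 for those of 7 or more.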
